A study of Mus musculus with 7 samples.

Results

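The 10 genes described here encode transforming growth factor beta 1 (Tgfb1), the type I and type II receptors that bind it (Tgfbr1 and Tgfbr2), and the SMAD proteins Smad1, Smad2, Smad3, Smad4, Smad5, Smad6 and Smad7. They were chosen by name, as 10 of 21938 protein-coding genes. Each gene was followed by its window, which is the gene body in mm10 (GENCODE M21) and 20 kb on either side. The 10 windows held 203 of the 144931 open chromatin regions (OCRs) obtained when the peaks of all libraries that overlapped by at least 1 bp were merged. No 2 windows shared an OCR.

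The data are bulk ATAC-seq peak lists of 7 libraries of HPC7, an established mouse hematopoietic progenitor cell line kept in medium with stem cell factor. ATAC-seq uses a transposase that inserts into accessible DNA, so a peak marks open chromatin and not transcription. The libraries came from separate cultures of the same line. The labels put all of them in 1 group, name no treatment and no control, and number them replicates 1, 2, 4, 5, 6, 7 and 8. All comparisons are therefore between genes and between regions, with the libraries as replicates. The peak names in the files, however, carry the prefix VD in replicates 1, 2 and 4 and the prefix EtOH in replicates 5 to 8. The labels do not explain these prefixes, so the libraries were not grouped by them, and whether the cultures differed in treatment is not known here. The values within each prefix are given beside the tests.

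The TGF-beta family signals through paired receptors with kinase activity. A bound type II receptor activates a type I receptor, which phosphorylates the receptor SMADs: Smad2 and Smad3 downstream of TGF-beta and activin, Smad1 and Smad5 downstream of bone morphogenetic proteins. These join Smad4 and act in the nucleus, while Smad6 and Smad7 inhibit the pathway. In hematopoietic progenitors TGF-beta is best known as a restraint on proliferation.

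Peak intensity is the fold enrichment at the summit over the background of the same library, which is not scaled between libraries. It was therefore turned into a percentile, the rank of a peak among all peaks of its own list, with 0 where a library listed no peak. A promoter OCR overlapped the 3 kb on either side of a transcript start. Other OCRs were intronic, exonic, distal (in the 20 kb flanks) or at the promoter of another gene.

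The sequences of 3 promoters and 3 intronic OCRs are given first, to show promoter sequence beside that of the strongest intronic OCRs. The promoter runs are the 250 bases before a start, from RefSeq on GRCm38.p6, written on the strand of the gene. They belong to the highest promoter of the 10 (Tgfbr1), to the gene with the most OCRs (Smad3), and to the only promoter without the KLF and SP motif at its summit (Tgfbr2). They lie at chr4:47352972-47353221 (plus strand), chr9:63757995-63758244 (minus strand) and chr9:116175364-116175613 (minus strand). The Tgfbr2 run does not hold the summit of its OCR. Capitals mark GGGCGG (KLF and SP factors) and CAGAC (the short SMAD motif) on either strand.

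Tgfbr1 promoter: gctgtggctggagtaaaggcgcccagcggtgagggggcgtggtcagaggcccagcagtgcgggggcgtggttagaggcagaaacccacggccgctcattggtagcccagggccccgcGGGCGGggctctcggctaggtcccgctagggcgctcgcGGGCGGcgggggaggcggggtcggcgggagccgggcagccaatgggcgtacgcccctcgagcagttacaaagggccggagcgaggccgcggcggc

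Smad3 promoter: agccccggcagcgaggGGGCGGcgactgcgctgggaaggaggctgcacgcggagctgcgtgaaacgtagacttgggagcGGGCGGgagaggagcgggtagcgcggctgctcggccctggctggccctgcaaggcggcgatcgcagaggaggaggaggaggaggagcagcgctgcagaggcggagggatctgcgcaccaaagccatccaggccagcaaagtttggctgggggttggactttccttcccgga

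Tgfbr2 promoter: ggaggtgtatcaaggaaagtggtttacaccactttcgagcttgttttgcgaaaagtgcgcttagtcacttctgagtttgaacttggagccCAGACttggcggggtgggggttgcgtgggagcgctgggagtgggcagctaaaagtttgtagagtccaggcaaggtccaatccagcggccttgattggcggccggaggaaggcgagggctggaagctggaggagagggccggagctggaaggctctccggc

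The intronic runs are the 300 bases around the summit of the strongest intronic OCR of Smad3, Tgfbr2 and Smad1, read from GRCm38.p6 on the plus strand. They lie at chr9:63726588-63726887, chr9:116123113-116123412 and chr8:79375715-79376014. Capitals mark, on either strand, the GATA factor motif AGATAA. They also mark TGTGGTT for RUNX factors, GGAAGT for ETS factors, and CAGAC. None of these letter strings lies inside another.

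Smad3 intronic: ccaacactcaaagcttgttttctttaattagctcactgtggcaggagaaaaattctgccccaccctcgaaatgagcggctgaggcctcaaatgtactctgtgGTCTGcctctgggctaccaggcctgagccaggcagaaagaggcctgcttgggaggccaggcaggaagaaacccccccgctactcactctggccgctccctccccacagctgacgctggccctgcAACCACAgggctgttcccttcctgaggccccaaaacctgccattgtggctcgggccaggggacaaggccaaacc

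Tgfbr2 intronic: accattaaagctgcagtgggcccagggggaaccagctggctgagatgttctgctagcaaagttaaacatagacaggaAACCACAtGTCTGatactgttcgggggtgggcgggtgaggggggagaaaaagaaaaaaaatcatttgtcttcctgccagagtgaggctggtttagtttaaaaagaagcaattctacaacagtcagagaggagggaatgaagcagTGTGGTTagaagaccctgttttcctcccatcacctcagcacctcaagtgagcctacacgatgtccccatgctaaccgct

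Smad1 intronic: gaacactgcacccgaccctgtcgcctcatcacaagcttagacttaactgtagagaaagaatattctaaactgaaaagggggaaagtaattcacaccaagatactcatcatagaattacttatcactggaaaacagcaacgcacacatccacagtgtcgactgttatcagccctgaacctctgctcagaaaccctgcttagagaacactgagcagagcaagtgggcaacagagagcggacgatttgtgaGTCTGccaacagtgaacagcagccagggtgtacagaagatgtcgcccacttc

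The promoter runs had a CpG ratio (observed over expected) of 0.88 for Tgfbr1, 0.79 for Smad3 and 0.64 for Tgfbr2, and held GGGCGG 2 times (Tgfbr1), 2 times (Smad3) and 0 times (Tgfbr2). Among 32544 RefSeq promoter runs of the same length, 33.0% held GGGCGG and 42.2% held CAGAC. The intronic runs were lower, with a CpG ratio of 0.23 for Smad3, 0.23 for Tgfbr2 and 0.42 for Smad1. The Smad3 run held 1 RUNX match and 1 short SMAD motif, and the Tgfbr2 run held 2 RUNX matches and 1 short SMAD motif. The Smad1 run held 1 short SMAD motif and none of the other motifs marked there. GGGCGG, which is not marked in the intronic runs, was found 1 time in that of Tgfbr2. It was not found in those of Smad3 and Smad1. A match is a string of letters and not a bound site.

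All 10 genes had a promoter OCR in all 7 libraries, compared with 60.8% of all protein-coding genes. All 10 promoters were also in the top 25% of peaks in each library, compared with 50.3% of the genes. Their mean percentiles ran from 91.9 ± 1.32 (Smad5, SD, n = 7) to 98.8 ± 0.15 (Tgfbr1). Their median was 96.1, beside a median of 80.8 over all genes and of 93.1 over the 13341 genes with a promoter OCR in every library. Among these 13341 genes, Tgfbr1 stood at the 90.1 percentile of the ranking and Smad5 at the 43.7 percentile.

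The ligand gene Tgfb1 had its strongest promoter OCR at chr7:25685905-25690722, over coding sequence and UTR. Its fold enrichment was lowest at 100.1, had a median of 141 and was highest at 168 across the libraries. In percentile terms these 7 values kept to 97.4 to 98.8. The summit lay 2.38 kb downstream of the first transcript start and 453 bp from the nearest one.

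A second Tgfb1 promoter OCR at chr7:25682855-25684450 had a mean percentile of 96.7 ± 0.53 and is also within 3 kb of a start of the neighbouring gene B9d2. Tgfb1 lies in a crowded stretch, and 9 of the 18 OCRs of its window were at the promoters of Tmem91, B9d2 or Ccdc97. The highest of these, at the B9d2 promoter, had a mean percentile of 98.6 ± 0.28. No OCR that belonged to Tgfb1 alone outside its promoters was found in all 7 libraries. The strongest was intronic, 15.6 kb from the first start, and ranged from 0 in replicate 2 over a median of 8.76 to 54.2 in replicate 1.

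The type I receptor gene Tgfbr1 had the highest promoter of the 10 genes, at chr4:47351361-47354500. Its fold enrichment ranged from 125 over a median of 168 to 199, from 801 to 3586 reads at the summit. The percentile hardly moved, from 98.6 to 99.0. Of its 19 OCRs, 9 were in all 7 libraries, and the strongest outside the promoter was intronic, 49.1 kb from the first start, with a mean percentile of 76.1 ± 4.23.

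The type II receptor gene Tgfbr2 had a weaker promoter, at chr9:116173798-116176352, with a fold enrichment from 55.7 over a median of 89.6 to 101. The 7 percentiles of Tgfbr2, from 91.98 to 95.7, were all below the lowest of Tgfbr1. The difference between the 2 receptor promoters is therefore larger than their spread. Tgfbr2 differed from Tgfbr1 in its introns as well. It had 11 intronic OCRs in all 7 libraries, compared with 5 for Tgfbr1, in gene bodies of 91.1 and 61.7 kb.

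The strongest intronic OCR of Tgfbr2, at chr9:116122253-116124053 and 52.1 kb from the start, had a fold enrichment from 43.8 over a median of 71.3 to 93.4. Its mean percentile was 92.3 ± 1.83. Another, 15.1 kb from the start at chr9:116159559-116161414, had a mean percentile of 88.5 ± 1.82. Both were in the top 25% of each library, as were 2 further intronic OCRs of this gene.

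**Figure D1:**
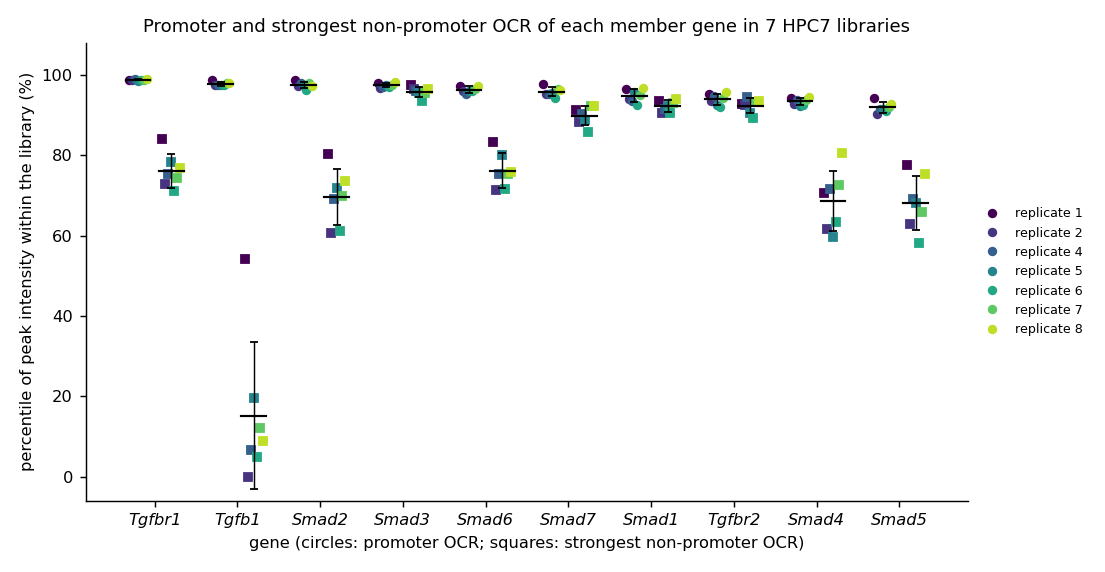
Percentile of peak intensity within each library (vertical axis, %) for the promoter OCR (circles) and the strongest non-promoter OCR (squares) of each gene, coloured by library, with mean and SD over 7 libraries as black bars. Promoters lie between 90.2 and 99.0 in all libraries, while the non-promoter values reach from 0 (Tgfb1, replicate 2) to 97.5 (Smad3, replicate 1).

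Of the receptor SMADs of the TGF-beta branch, Smad2 had its promoter OCR at chr18:76240369-76242775, with a fold enrichment from 86.5 over a median of 127 to 170. The mean percentile was 97.6 ± 0.77. The rest of the Smad2 window was sparse, with 11 OCRs in all and 4 in every library. A further promoter OCR at 18.2 kb, within 3 kb of downstream Smad2 starts, had a mean percentile of 80.7 ± 2.96. The strongest non-promoter OCR was distal, 4.06 kb upstream of the first start, at 69.5 ± 6.95.

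Smad3, the other receptor SMAD of this branch, had a promoter OCR at chr9:63755881-63760212 with a fold enrichment from 93.7 over a median of 130 to 165. Its mean percentile was 97.4 ± 0.55, which differed from Smad2 by 0.15 (SD 0.69), less than the spread between libraries. The 2 genes differed in what surrounded the promoter. The Smad3 window held 41 OCRs, the most of the 10, and 21 of them were in every library. It was also the longest window, with 151 kb, compared with 109 kb for Smad2.

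The strongest non-promoter OCR of all 10 genes was in an intron of Smad3, at chr9:63725796-63727784, 31.3 kb from the first start. Its fold enrichment ranged from 64.5 over a median of 112 to 134, and its mean percentile was 95.8 ± 1.23. In mean percentile this intronic OCR lay above the promoter OCRs of Smad1, Tgfbr2, Smad4 and Smad5, at 94.8, 94.0, 93.4 and 91.9, and beside that of Smad7, at 95.8. These differences between genes were not tested.

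It was 1 of 5 intronic Smad3 OCRs that were in the top 25% of each library. The others lay 19.8, 36.2, 41.7 and 51.4 kb from the first start, with mean percentiles of 87.6 ± 2.54, 89.7 ± 2.17, 88.4 ± 2.08 and 89.1 ± 2.75. All 5 thus lie in a stretch between 19.8 and 51.4 kb of a gene of 111 kb. A promoter OCR near the most downstream Smad3 start, at 93.4 kb, had a mean percentile of 85.9 ± 2.44.

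Of the bone morphogenetic protein branch, Smad1 had its promoter OCR at chr8:79397565-79400071, with a fold enrichment from 58.7 over a median of 83.0 to 127.5. The mean percentile was 94.8 ± 1.55, the largest SD among the 10 promoters. The strongest OCR outside the promoter lay over the UTR at the 3′ end, at chr8:79340568-79343162, with a mean percentile of 92.2 ± 1.43. An intronic OCR at chr8:79374381-79376490, 23.7 kb from the start, followed with 90.1 ± 1.48. With 2 further intronic OCRs, 4 Smad1 OCRs outside promoters were in the top 25% of each library.

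Smad5, the other receptor SMAD of this branch, had the lowest promoter of the 10, at chr13:56702366-56704515. Its fold enrichment ranged from 50.4 over a median of 67.3 to 85.6. In 6 of 7 libraries the percentile was below 93, and replicate 1 was the highest at 94.3. The Smad5 window of 79.4 kb held 10 OCRs, the fewest of all by count. The strongest outside the promoter was intronic, 4.83 kb from the start, at 68.1 ± 6.79.

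The common partner Smad4 had its promoter OCR at chr18:73702729-73704776, with a fold enrichment from 57.9 over a median of 85.2 to 87.7 and a mean percentile of 93.4 ± 0.89. Its window held 14 OCRs, 7 of them in every library. The strongest non-promoter OCR was intronic, 15.1 kb from the start, and ranged from 59.7 over a median of 70.7 to 80.6 in percentile.

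Of the inhibitory SMADs, Smad6 had its promoter OCR at chr9:64020131-64023715, with a fold enrichment from 82.6 over a median of 102.8 to 134 and a mean percentile of 96.3 ± 0.78. The summit lay 1.01 kb upstream of the first start. The strongest non-promoter OCR of Smad6 was intronic, 47.3 kb from the start, at 76.1 ± 4.36.

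Smad7, the inhibitor that competes at the TGF-beta receptor itself, had the widest promoter OCR of the 10, with 6674 bp at chr18:75366120-75372793. Its fold enrichment ranged from 69.1 over a median of 104 to 138, and its mean percentile was 95.8 ± 1.08. A pair of intronic OCRs, 20.04 and 24.9 kb from the start, had mean percentiles of 89.8 ± 2.38 and 88.8 ± 2.70. Past the 3′ end, a distal OCR at 38.3 kb had 86.6 ± 2.43 and was the only distal OCR of the 10 windows in the top 25% of each library.

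**Figure D2:**
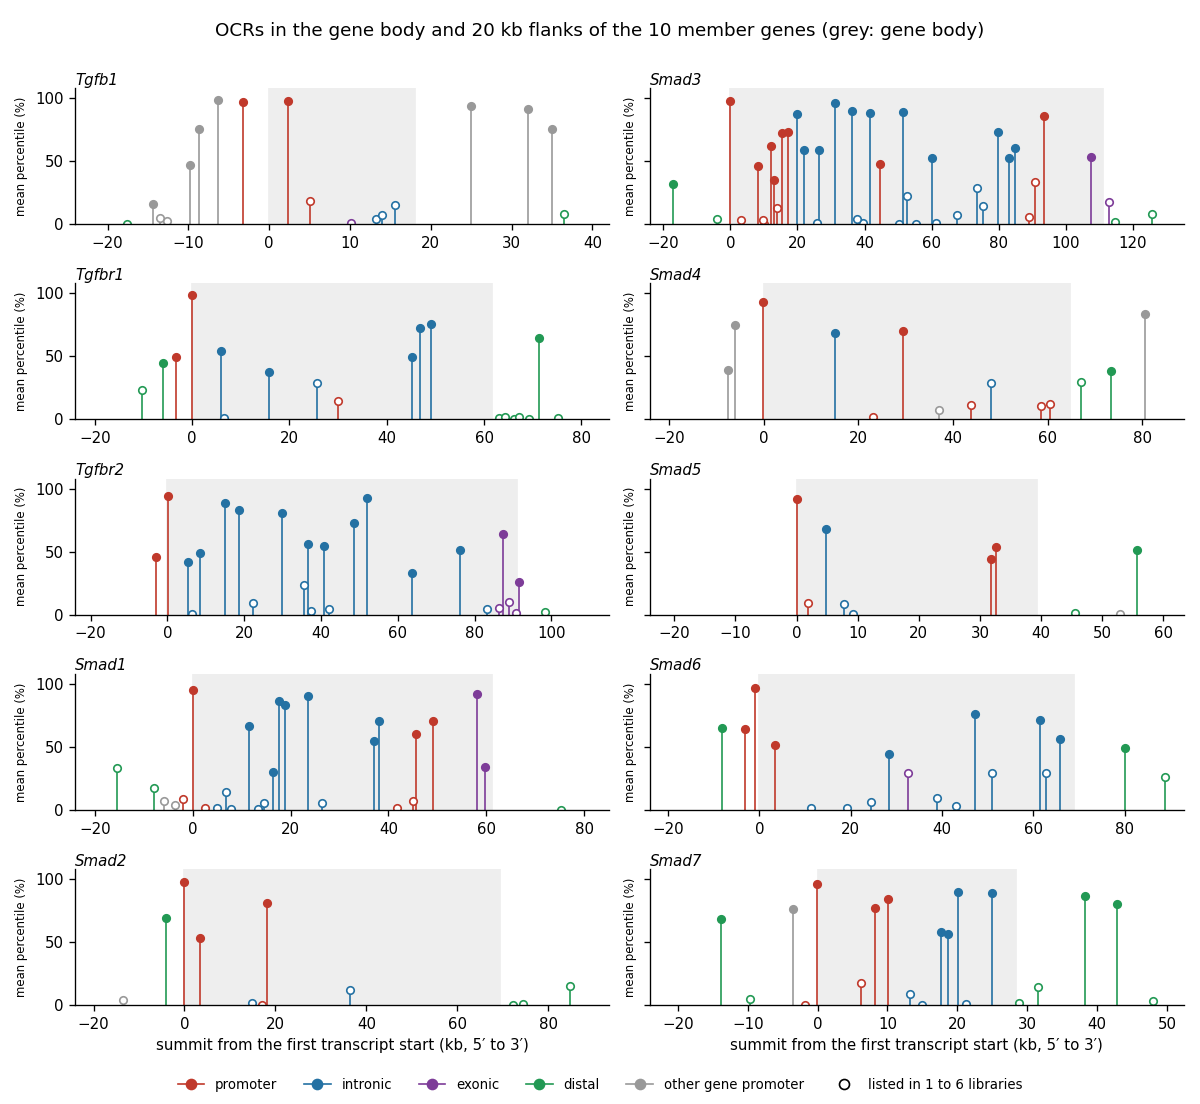
OCRs of the 10 windows, placed by the distance of the summit from the first transcript start (horizontal axis, kb) and drawn to the height of the mean percentile over 7 libraries (vertical axis, %). Colours give the class, filled circles are in all 7 libraries, open circles in 1 to 6, and grey spans are gene bodies. Smad3, Tgfbr2 and Smad1 carry several high intronic OCRs, and Smad2, Smad4 and Smad5 do not.

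The order of the 10 promoters was tested in 45 pairs by an exact permutation test that flips the signs of the 7 library differences (two-sided, Benjamini-Hochberg adjusted over the 45, smallest possible p = 0.0156). In 37 of the 45 pairs the adjusted p was under 0.05, and in 34 the order was the same in all libraries. Pairs of other promoters were not tested, so these counts have no share over all genes beside them. Neighbours in the order could mostly not be told apart, as only 3 of 9 neighbouring pairs passed.

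Smad3 was higher than Smad6 by 1.07 percentile points (SD 0.40, 7 of 7 libraries, exact permutation test, adjusted p = 0.0207). Smad4 was higher than Smad5 by 1.51 points (SD 0.84, 7 of 7 libraries, exact permutation test, adjusted p = 0.0207). Tgfbr1 was higher than Tgfb1 by 0.98 points (SD 0.51, 6 of 7 libraries, exact permutation test, adjusted p = 0.0380). This last call was lost when any of replicates 2, 4, 5, 6, 7 and 8 was left out, with an adjusted p of 0.0703 to 0.0760 in the exact permutation test and a difference of 0.89 to 1.03.

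The neighbours from Tgfb1 to Smad3 did not separate: Tgfb1 was above Smad2 by 0.27 (SD 0.51, 5 of 7 libraries). Smad6 was above Smad7 by 0.52 (SD 0.71, 5 of 7 libraries), and Smad7 above Smad1 by 0.98 (SD 0.94, 5 of 7 libraries). Smad1 was above Tgfbr2 by 0.89 (SD 1.31, 6 of 7 libraries), and Tgfbr2 above Smad4 by 0.57 (SD 0.54, 6 of 7 libraries). None of these pairs passed. Within the 4 EtOH libraries 44 of the 45 pairs had the overall order of the means, as did 44 within the 3 VD libraries, and the exceptions were Smad3 above Smad2 and Smad2 above Tgfb1. In the order, Tgfb1, Smad2 and Smad3 thus overlapped above Smad6, and the genes from Smad6 to Smad4 overlapped with their neighbours above Smad5.

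The promoter was then compared with the strongest non-promoter peak of the same window in each library, by the same exact permutation test and adjusted over the 13850 protein-coding genes that had both. In all 10 genes the promoter was higher in 7 of 7 libraries (exact permutation test, adjusted p = 0.0173 for each). It was thus higher in each library of both prefixes. This direction is the usual one, as 73% of the genes tested were called with the promoter higher and 19.5% with the promoter lower. The size of the difference separated the 10 genes further.

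In Smad3 the promoter was ahead by only 1.60 ± 1.08 percentile points (mean ± SD, n = 7), in Tgfbr2 by 1.63 ± 0.94, in Smad1 by 2.64 ± 0.66 and in Smad7 by 5.91 ± 1.63. In the other 6 genes the difference was at least 20.2, namely 20.2 ± 4.01 in Smad6, 22.8 ± 4.26 in Tgfbr1 and 23.7 ± 5.70 in Smad5. It was 24.8 ± 6.58 in Smad4, 28.0 ± 6.36 in Smad2 and 30.2 ± 9.04 in Tgfb1. The median over the 10 genes was 21.5, and over the genes tested 15.6.

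Several of these values depend on where the window and the promoter end. The strongest Tgfb1 non-promoter peaks had a mean percentile of 67.6 ± 8.77. In replicate 1 this was the intronic OCR of Tgfb1, and in the other libraries a peak that belongs, once libraries are merged, to the wide OCR over the Ccdc97 promoter. With peaks put in the class of their merged OCR, an alternative chosen after seeing the data, the difference was 79.7. With promoters of 1 kb the Tgfb1 difference was 1.13, as the second promoter OCR then counted as non-promoter, and it was 9.78 in Smad4 and 16.9 in Smad2. With flanks of 50 kb it was 12.9 in Tgfb1, 14.5 in Tgfbr1, 8.89 in Smad6 and 1.58 in Smad7, and the promoter was still higher in all 10.

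Smad3, Tgfbr2, Smad1 and Smad7 were the 4 genes with a non-promoter peak in the top 25% of each library, compared with 23.1% of all protein-coding genes. Together they held all 16 such OCRs of the 10 windows: 5 in Smad3, 4 each in Tgfbr2 and Smad1, and 3 in Smad7. The 10 non-promoter OCRs with the highest mean percentile, from 88.4 to 95.8, were also all in these 4 genes, and 9 of the 10 were intronic. In replicate 6, the shortest list, these 10 ranged from 83.7 to 93.6, and in replicate 1, the longest, from 90.3 to 97.5.

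The same 4 genes were the densest in non-promoter OCRs present in all libraries. Smad7 had 10.2 per 100 kb of window, Tgfbr2 9.92, Smad1 8.90 and Smad3 8.60. Tgfbr1 and Smad6 were intermediate with 6.88 and 5.51. Smad5 had 2.52, Smad4 1.91, Smad2 0.91 and Tgfb1 0. The median over the genes with a promoter OCR in every library was 2.41, and the 10 genes spread over nearly the whole of that ranking, from the 10.6 percentile (Tgfb1) to the 97.3 percentile (Smad7).

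**Figure D3:**
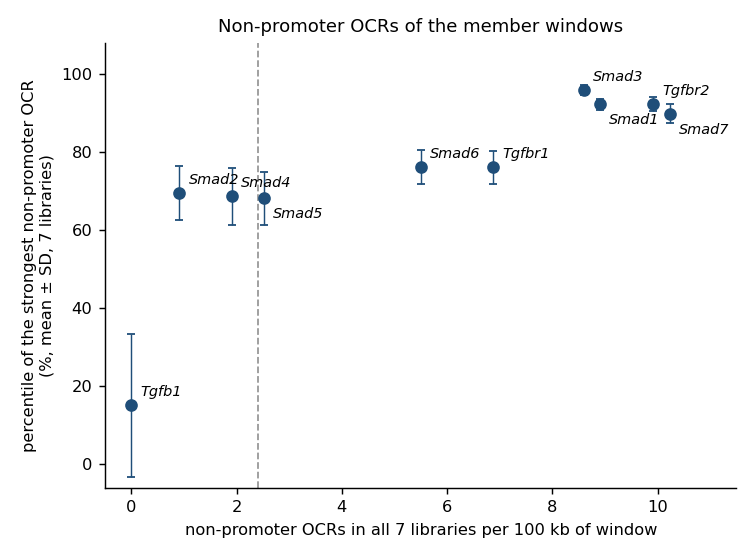
Non-promoter OCRs in all 7 libraries per 100 kb of window (horizontal axis) and percentile of the strongest non-promoter OCR (vertical axis, %, mean and SD over 7 libraries) for the 10 genes. The dashed line is the median density of genes with a promoter OCR in every library, 2.41, and Smad1, Smad3, Smad7 and Tgfbr2 lie together at the upper right.

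Of the 203 OCRs, 102 were in all 7 libraries (50.2%), 61 in 2 to 6 and 40 in 1. Of all merged OCRs 46.2% were in every library. By class, 31 of 51 promoter OCRs of the 10 genes were in every library (60.8%, beside 54.8% of all promoter OCRs), and 49 of 97 in their gene bodies (50.5%, beside 41.4%). With 50% reciprocal overlap these were 20 of 51 (39.2%) and 31 of 97 (32.0%). With promoters of 1 kb they were 16 of 21 (76.2%) and 60 of 120 (50%). Of the distal OCRs, some of which lie in the bodies of other genes, 11 of 37 were in every library (29.7%). The share was 41% (41 of 100) with flanks of 50 kb and 41.2% (21 of 51) with promoters of 1 kb, and 50% (10 of 20) with lists of equal length. Of all intergenic OCRs, 42.7% were in every library with full lists, 1 bp of overlap and promoters of 3 kb. Shares over all merged OCRs were not computed at the other settings, so those values of the 10 windows have no background. The 18 OCRs at promoters of other genes included 11 in every library.

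**Figure D4:**
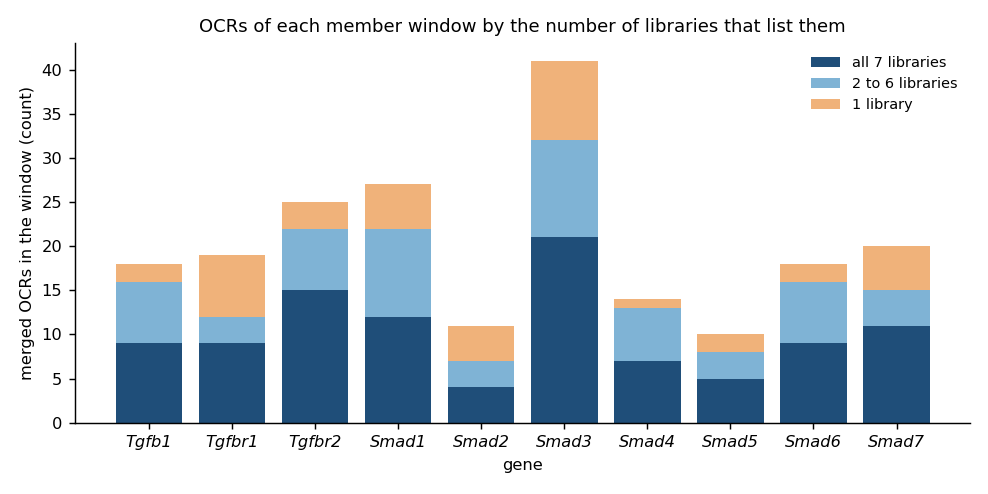
Number of merged OCRs in each window (vertical axis, count), stacked by the number of libraries that list them. Smad3 has 21 of 41 in all 7 libraries, Tgfbr2 15 of 25 and Smad2 4 of 11.

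The libraries differed in the number of OCRs found. Across them 84593 to 132852 peaks were listed, and the background under a summit amounted to 4.44 to 20.4 reads. In the 10 windows 106 OCRs were found in replicate 6, a median of 136 per library, and 192 in replicate 1, which also had the longest list and the highest background. Replicate 4 had the next highest background, 7.45 reads, with 103794 peaks and 134 OCRs. Replicate 8 had the next longest list, 124126 peaks, with a background of 5.87 reads and 156 OCRs. The part of depth in these counts was not tested. Of the 40 OCRs seen in a single library, 30 came from replicate 1, as did 16873 of the 25994 such OCRs in the genome. When the other 6 lists were merged anew without replicate 1, wide OCRs could split, and 105 of the 183 OCRs so obtained were in every library (57.4%).

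The 10 genes have 30 clusters of transcript starts, grouped within 1 kb, and 17 of them had an OCR of all 7 libraries within 500 bp. Another 10 had none and 3 had one in fewer libraries. Over all protein-coding genes with a promoter OCR in every library, 45.7% of 34452 clusters had an OCR of all 7 libraries and 47.4% had none. Of the 20 clusters of the 10 genes downstream of the first, 7 had one of all 7 libraries and 10 had none, beside 21.8% and 68.9% of 21111 downstream clusters of those genes. The first start was open in all 10 genes. In 8 of the 10 the summit of the promoter OCR lay between -170 and 107 bp of the nearest start. In Smad4 3 of 6 clusters had no OCR, and in Smad2 neither of the downstream protein-coding clusters, at 19.5 and 20.9 kb, had one within 500 bp. In Smad7 all 3 clusters were open.

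The base composition was taken at the summit of the strongest promoter OCR of each gene. In 300 bases around the summit they had a median of 74.2% G and C and a CpG ratio of 0.90, with a range from 0.72 in Tgfb1 to 1.15 in Smad1. Counted by merged OCRs, 13367 protein-coding genes have a promoter OCR in all libraries, while 13341 have a peak within 3 kb of a start in each list. Over the strongest promoter OCRs of these 13367 genes, the medians were 63.7% and 0.79, with quartiles of 56.3% and 69.7% for G and C and of 0.52 and 0.93 for the CpG ratio. The other 21 promoter OCRs of the 10 genes in all libraries had medians of 48.7% and 0.24. Over all 26541 promoter OCRs in every library, the strongest included, the medians were 54% and 0.33. The 60 non-promoter OCRs of the 10 windows present in all libraries had 49.5% and 0.22, close to the 48.3% and 0.19 of all such OCRs.

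GGGCGG was found in 9 of the 10 promoter summit windows, Tgfbr2 being the exception, and in 62.6% of the strongest promoter OCRs of all 13367 genes. It was in 0 of the other 21 promoter OCRs, and in 34.3% of all 26541 promoter OCRs found in every library, the strongest included. Further promoter OCRs of other genes were not counted apart, so the 21 have no matching share for any motif. CAGAC was found in 1 of the 10, Smad2, in 47.7% of the strongest promoter OCRs of all genes, and in 12 of the other 21. Around the 60 non-promoter summits, CAGAC was found in 31 (51.7%, beside 57.2% of 40438 non-promoter OCRs), AGATAA in 14 (23.3%, beside 23.0%), GGAAGT in 19 (31.7%, beside 35.5%) and TGTGGTT in 8 (13.3%, beside 17.4%). TGANTCA, bound by AP-1, was found in 16 (26.7%, beside 16.5%), the E-box CAGCTG in 15 (25%, beside 20.7%), GGGCGG in 7 (11.7%, beside 7.76%) and the CTCF motif in 1 (1.67%, beside 7.35%). The palindrome GTCTAGAC, the strongest SMAD site, was in none of the 60, and in 0.27% of all such OCRs. Both strands were searched and no share was tested.

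A list of 44 further pathway genes places the 10 among their partners. Of the 44, 34 had a promoter OCR in all 7 libraries (all genes 60.8%), 31 were in the top 25% of each (all genes 50.3%), and 4 had no promoter OCR in any. In 26 of the 37 that could be tested the promoter was called higher than the strongest non-promoter peak, and in 6 lower (exact permutation test, adjusted over all genes), near the shares of 73% and 19.5% over all genes tested.

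Of the ligands 4 of 8 had a promoter OCR in every library, near the share of all genes. The mean percentiles went from 90.9 ± 1.57 for Gdf11 to none for Bmp4, a bone morphogenetic protein. Of the receptors and co-receptors 8 of 10 did, and the means went from 97.2 ± 0.68 for Bmpr2, the type II receptor of the bone morphogenetic proteins, to none for the type I receptor Bmpr1b. Of the 3 genes of ligand handling all were open, from 85.7 ± 2.70 for Ltbp1, which stores latent TGF-beta in the matrix, to 94.9 ± 1.13 for the processing protease Furin.

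Of the inhibitors and adaptors 6 of 7 were open in every library, with the pseudoreceptor Bambi highest at 96.9 ± 0.72. The other one, Nog, which encodes the secreted antagonist noggin, had a promoter OCR in 4 libraries and a mean of 10.6 ± 13.2. Of the nuclear partners 8 of 9 were open in every library. The highest was Ski, a repressor of SMAD complexes, with a mean of 99.7 ± 0.08, and the remaining receptor SMAD of the bone morphogenetic protein branch, Smad9, had no promoter OCR. Of the 7 target genes 5 were open in every library, with the cell cycle inhibitor gene Cdkn1a highest at 98.6 ± 0.57, and Cdkn2b, another of that class, had no promoter OCR.

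**Figure D5:**
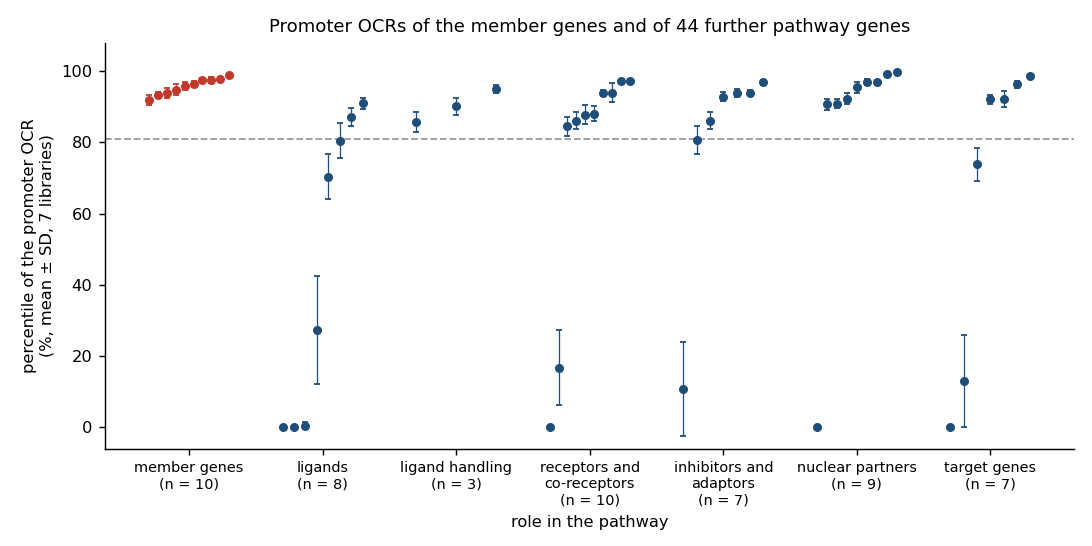
Percentile of the promoter OCR (vertical axis, %, mean and SD over 7 libraries, 0 where no peak was listed) for the 10 member genes in red and 44 pathway genes by role in blue. The dashed line is the median of all protein-coding genes, 80.8, and all 10 member genes lie above it while the ligands spread from 0 to 90.9.

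The labelled cell type was checked on marker genes. All 8 blood progenitor genes had a promoter OCR in every library, compared with 60.8% of all protein-coding genes. Their median percentile was 94.5, beside 93.1 over all genes with a promoter OCR in every library. The lowest of the 8 was Ptprc, at 83.7 ± 2.86. Among genes of other cell types, the muscle gene Myod1 and the endothelial gene Cdh5 also had one in every library, at 61.4 ± 5.87 and 84.8 ± 3.15. Cdh5 thus lay above Ptprc, and the 2 groups of markers overlapped. The hepatocyte gene Alb and the fibroblast gene Col1a2 had none in any library. The neuronal gene Neurod1 had one in 4 libraries, the T cell gene Cd3e in 2 and the keratinocyte gene Krt14 in 6.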

How the data were processed

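Peak lists of 7 ATAC-seq libraries of HPC7 cells, each from its own culture, were used as deposited; replicate 3 was not analysed here. The authors trimmed the reads, aligned them to mm10 with BWA and called peaks in each library with MACS2, whose versions are not given in the sources used here. The deposited values are the fold enrichment at the summit (a ratio to the background of the same library), -log10 p and -log10 q values, and a score that is 10 times the -log10 q; the score was not used. All fold enrichments were whole multiples, within 0.02, of 1 step per library, from which the reads at a summit were recovered. Intervals from these would cover counting error only.

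Peaks were merged over libraries at 1 bp of overlap. Promoters were 3 kb on either side of any GENCODE M21 transcript start, and windows were gene bodies with flanks of 20 kb. Chromosome lengths of GRCm38.p6 bounded all peaks. Percentiles were ranks of fold enrichment within a list, with ties at their mean. Differences were tested over 7 libraries by an exact sign-flip permutation test (128 sign patterns), two-sided, with Benjamini-Hochberg adjustment over 45 pairs, or over all protein-coding genes with both kinds of peak. Adjusted p under 0.05 was called. The functions were tested on simulated data and against bedtools 2.31.1. Python 3.11.15, pandas 2.3.3, scipy 1.17.1 and pysam 0.24.0 were used. Motifs were sought in 300 bases around summits. For promoters the background was the strongest promoter OCR of each protein-coding gene, added after the first results were seen. RefSeq promoter runs (GRCm38.p6) matched 7 of the 10 genes, and other sequences were read from the same genome.

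The genes, the pathway list and the marker lists were chosen with earlier results of these data known. Of the markers, 1 gene of another cell type is not reported here. Named OCRs were the promoter OCR and the non-promoter OCR of each gene with the highest mean percentile, and the 10 highest non-promoter OCRs. Further OCRs are named in the text where they belong to the groups counted, and were chosen after their values were seen. Pathway genes were named where highest or lowest of their role or without a promoter OCR. The alternatives comprised a minimum -log10 q of 5, lists of equal length, promoters of 1 kb, no flank or flanks of 50 kb, 50% reciprocal overlap, log10 fold enrichment, ranks among non-promoter peaks alone, and leaving out each library.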

Additional observations from a re-analysis of the deposited data

Results flagged for a closer look

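Over 30 sets of 7 library values (the promoter percentile, the percentile of the strongest non-promoter OCR and the number of OCRs listed, for each of the 10 genes), 3 had a library far from the others by Dixon's criterion, where chance gives about 1.5. All 3 were in replicate 1, the longest list with the highest background. The strongest non-promoter OCR of Tgfb1, in an intron, was at the 54.2 percentile there, and the nearest other library was at 19.5. In the Smad2 window 11 OCRs were listed, and at most 7 in another library. In the Smad3 window 40 were listed, and at most 30 in another. The part of depth in these values was not tested.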

How the results depend on the processing

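The 10 genes kept a promoter OCR in every library with a minimum -log10 q of 5, lists of equal length or promoters of 1 kb. That count was not taken with 50% reciprocal overlap. The promoter stayed above the strongest non-promoter peak with log10 fold enrichment, promoters of 1 kb, flanks of 50 kb or a minimum -log10 q of 5. This comparison was not run with lists of equal length, no flank or 50% reciprocal overlap. Leaving out each library in turn gave 10 to 10 genes for both counts, 102 to 114 OCRs found in all remaining libraries and 34 to 36 of 45 promoter pairs called. With 1 kb promoters, log10 fold enrichment or lists of equal length 37 pairs were called, and no pair changed its order. When a peak had to overlap the widest peak of its OCR by 50% reciprocally, 67 of 203 OCRs were in every library in place of 102. That setting counts fewer peaks by construction. Ranked among non-promoter peaks only, which leaves out the promoter peaks, the best non-promoter OCR rose to 99.2 in Smad3, 97.9 in Tgfbr2, 97.9 in Smad1, 96.5 in Smad7, 83.9 in Smad6, 83.9 in Tgfbr1, 76.8 in Smad2 and 75.3 in Smad5, and moved by less than 1 SD in Smad4 and Tgfb1. The call of Tgfbr1 over Tgfb1 was lost without any of replicates 2, 4, 5, 6, 7 and 8. This loss was fixed in advance, as the sets that kept replicate 1, with the opposite order, were too small to pass. The call of Smad1 over Tgfbr2 was gained without replicate 4, and that of Tgfbr2 over Smad4 was gained without replicate 6. Without a flank no distal OCR could be counted. No paired analysis was possible because 1 group shares no replicate numbers with another; differences between genes or regions were taken within each library. Peaks weaker than the threshold of a shorter list are not seen in it, so an OCR missing from a library was not detected there, which does not show that it is closed.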
